A study of Homo sapiens with 32 samples.

Results

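The change in RNA counts between 15 and 30 min of incubation with 4-thiouracil was described here across all genes of HEK293 cells, a human embryonic kidney line. The count table's own header gives each library's incubation time, and the 16 libraries headed 15 or 30 min were taken from 32 in all. The study had 4 incubation times (0, 5, 15 and 30 min), 2 biological replicates at each time, 2 cDNA preparations per replicate and 2 tagmentation libraries per cDNA. The 4 libraries of each biological replicate were summed, so that 2 cultures of 30 min were compared with 2 of 15 min, out of 8 cultures. The 15 and 30 min cultures both received the agent and differ, by the labels, in incubation time alone. The 5 min cultures are used below for the step before, and the 0 min cultures enter the fit. The labels name 1 cell line and no transgene, dose or separate control treatment, and they give the molecule as polyA RNA. The sources used here do not say whether thiolated RNA was separated from the rest before library preparation. Nothing says that the biological replicates were grown apart, so the p-values below measure the spread between these samples.

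4-Thiouracil is a base analogue that a cell must first turn into a nucleotide before RNA polymerase can build it into new transcripts. Uracil phosphoribosyltransferase can carry out this step. RNA made during the incubation can then carry a thiol group that unlabelled, older RNA lacks. The labels name no added gene for this step, and whether RNA was labelled in these cells was not tested. Immediate-early genes are transcribed within minutes of a stimulus without new protein synthesis and give short-lived mRNAs, whereas mRNAs of ribosomal proteins and of the respiratory chain are known as abundant and long-lived.

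The 15 min cultures held 1339808 and 1347710 counts and the 30 min cultures 1396056 and 1343632, close to equal depth. Libraries of the same cDNA differed by less than Poisson sampling would give, with a chi-square per degree of freedom of 0.401 to 0.573 over 8 pairs, and libraries of different cDNA of a culture gave 1.17 to 1.36 over 16 pairs, so that no single library was used as a replicate. Log2 levels correlated across genes at r = 0.959 between the 15 min cultures, 0.956 between the 30 min cultures and 0.926 to 0.940 between cultures of the different times; genes are not independent replicates. Of 8 genes listed as markers of HEK293, 4 had enough counts to be tested and none was called. The summed level of the fibroblast markers was at most 0.00043% of counts, that of the endothelial markers at most 0.000149%, that of 3 hepatocyte markers at most 0.00179%, and the blood and erythroid markers were at 0 in all 4 cultures of 15 and 30 min. The hepatocyte marker APOA1, the tested one of its list, stood at 6.46 and 2.74 CPM at 15 min and 9.01 and 14.8 CPM at 30 min, with no overlap, and was not called (log2 1.34, adjusted p = 0.417).

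From 15 to 30 min, 236 genes rose and 290 fell among 10439 with enough counts to be tested. This was 5.04% of the genes tested in either direction, 2.26% higher and 2.78% lower, at an adjusted p under 0.05 in edgeR's quasi-likelihood F test fitted to all 8 cultures. Among the called genes the increases were larger than the decreases. More than 2-fold change was reached by 160 of the genes that rose and by 60 of those that fell, with median log2 fold changes of 1.24 and -0.83. The genes that fell had a median level of 171 CPM (TMM-adjusted counts relative to the library total), those that rose 68.7 CPM and all genes tested 36.1 CPM. A gene of fewer counts needs a larger change to be called, so the sizes of called rises and falls are not directly comparable. In all 526 called genes the 30 min cultures lay wholly above or wholly below the 15 min cultures, as they did in 24.8% of all tested genes on the higher and 25.6% on the lower side. The numbers of called members in every list below are to be read beside the shares of 2.26% higher and 2.78% lower.

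CPM values show a gene's share of the library, and the balance of rises and falls differed between scalings. RLE size factors gave 198 genes higher and 391 lower, total counts 315 and 202, and upper-quartile scaling 248 and 200. DESeq2, which also has another model and test, gave 111 and 359. For some genes, named ones among them, DESeq2 gave no adjusted p-value, and these count as not called here and below. Leaving out culture 1 of 15 min gave 125 higher and 354 lower, leaving out culture 2 of 15 min 118 and 65, leaving out culture 1 of 30 min 65 and 78, and leaving out culture 2 of 30 min 108 and 52. No gene called here changed sign in any of these fits. With a culture left out this was nearly fixed beforehand, since the cultures of the 2 times overlapped in no called gene.

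**Figure D1:**
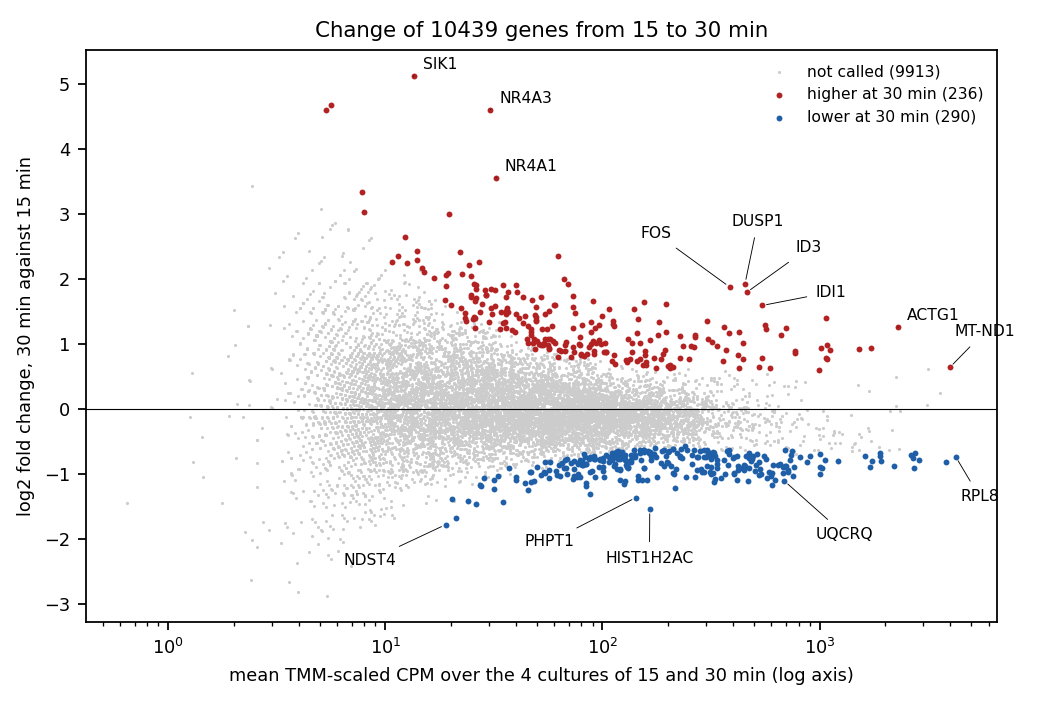
Each point is a gene, with its mean level over the 15 and 30 min cultures (TMM-scaled CPM, log axis) against its log2 fold change from 15 to 30 min; red marks the 236 genes called higher, blue the 290 called lower. The largest rises are at low levels, where they rest on few counts (SIK1 had 2 counts at 15 min), and NR4A3 reaches 4.60, while the falls reach -1.78 and form a band along the genes of high level.

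Promoters of 6 genes are shown as examples: 4 early-response genes of different families that rose, the actin gene ACTG1 that rose, and RNASEH2A, which fell. RNASEH2A is among the largest decreases and stands for none of the falling lists, so the 6 give no comparison of rises with falls. Bases further from the start were not searched. Each is the 250 bases before the annotated start in RefSeq (GRCh38.p14), 5′ to 3′ on the gene's strand. Capitals mark 3 motifs searched on both strands, TGACG (the core that the cAMP response element TGACGTCA contains, so that each match of the longer motif is also a match of the shorter), TATAAA (the TATA box), and the CArG box that serum response factor binds.
FOS: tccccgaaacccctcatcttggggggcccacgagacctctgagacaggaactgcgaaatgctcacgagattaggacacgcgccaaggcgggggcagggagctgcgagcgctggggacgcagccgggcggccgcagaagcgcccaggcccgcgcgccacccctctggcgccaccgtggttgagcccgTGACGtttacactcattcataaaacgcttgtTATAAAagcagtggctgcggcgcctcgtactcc
EGR1: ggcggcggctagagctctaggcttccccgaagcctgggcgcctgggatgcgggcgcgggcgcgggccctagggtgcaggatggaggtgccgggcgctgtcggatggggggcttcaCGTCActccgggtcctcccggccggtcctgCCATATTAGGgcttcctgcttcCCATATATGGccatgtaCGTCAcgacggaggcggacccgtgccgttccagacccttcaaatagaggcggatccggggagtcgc
DUSP1: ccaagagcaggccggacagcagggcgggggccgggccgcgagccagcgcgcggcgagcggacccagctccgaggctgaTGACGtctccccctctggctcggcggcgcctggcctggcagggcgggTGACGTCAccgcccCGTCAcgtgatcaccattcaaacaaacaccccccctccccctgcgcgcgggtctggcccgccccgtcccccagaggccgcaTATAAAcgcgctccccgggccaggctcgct
NR4A3: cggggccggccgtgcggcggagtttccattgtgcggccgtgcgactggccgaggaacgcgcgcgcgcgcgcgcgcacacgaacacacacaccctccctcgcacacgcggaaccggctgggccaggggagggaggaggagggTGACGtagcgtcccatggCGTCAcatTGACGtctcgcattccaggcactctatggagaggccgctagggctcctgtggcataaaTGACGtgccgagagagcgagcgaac
ACTG1: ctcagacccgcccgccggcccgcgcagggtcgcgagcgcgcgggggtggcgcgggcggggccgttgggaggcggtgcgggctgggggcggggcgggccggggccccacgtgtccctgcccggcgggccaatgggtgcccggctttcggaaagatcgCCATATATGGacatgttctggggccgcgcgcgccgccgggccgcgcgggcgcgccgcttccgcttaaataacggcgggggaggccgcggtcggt
RNASEH2A: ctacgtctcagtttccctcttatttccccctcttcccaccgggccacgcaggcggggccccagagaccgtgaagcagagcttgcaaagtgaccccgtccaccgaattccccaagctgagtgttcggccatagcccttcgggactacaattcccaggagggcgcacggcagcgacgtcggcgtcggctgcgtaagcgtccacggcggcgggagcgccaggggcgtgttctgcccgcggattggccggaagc
The FOS window lies at chr14:75278578-75278827 on the plus strand, EGR1 at chr5:138465229-138465478 (plus), DUSP1 at chr5:172771196-172771445 (minus), NR4A3 at chr9:99821635-99821884 (plus), ACTG1 at chr17:81512800-81513049 (minus) and RNASEH2A at chr19:12806334-12806583 (plus). FOS holds TGACG 64 bases and TATAAA 33 bases before the start. EGR1 holds CArG boxes 105 and 83 bases before the start and TGACG on the opposite strand at 135 and 66. DUSP1 holds the full TGACGTCA at 125 bases and TATAAA at 30, NR4A3 holds TGACG or its complement at 109, 91, 83 and 25 bases, ACTG1 a CArG box at 94 bases, and RNASEH2A none of them. Among 35116 RefSeq promoter windows of the same length, 1.16% hold a CArG box, 1.65% TGACGTCA, 21.2% TGACG and 10.7% TATAAA. The GC box GGGCGG, found in 42.6%, is left in lower case. Promoters were matched for 79.6% of the tested genes, 79.2% of those that rose and 85.9% of those that fell, and because the match was incomplete and uneven, motif shares were not compared between these groups. A match describes these letters only and shows no binding.

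Most immediate-early genes with enough counts were called higher here, though not in every other fit. Of 23 tested members among 30 on the list, 15 rose and none fell, all 23 had a log2 fold change above 0, and their median was 1.65 against -0.01 for all genes tested. Their summed share of all counts went from 0.178% and 0.151% at 15 min to 0.483% and 0.390% at 30 min, and both 30 min cultures were above both of 15 min. In the other settings that kept all cultures of 15 and 30 min, the number called ranged from 8 with DESeq2 to 20. Leaving out any 1 culture of 15 or 30 min gave fewer called members than reported here. DESeq2 gave no adjusted p-value for some members, which count as not called. Without culture 1 of 30 min the median was 1.32, the lowest over the settings.

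The AP-1 genes FOS, FOSB and JUN encode subunits of the transcription factor that dimerises through leucine zippers. FOS stood at 150.0 and 179.8 CPM at 15 min and 665 and 545 CPM at 30 min, with no overlap between the times, and rose by a log2 fold change of 1.88 ± 0.20 (SE, adjusted p = 2.12e-07). FOSB was at 7.11 and 1.37 CPM at 15 min and 51 and 19.1 CPM at 30 min, from 11 and 2 counts at 15 min, and rose by a log2 fold change of 3.00 ± 0.67 (SE, adjusted p = 0.005). The FOSB values were higher in culture 1 than in culture 2 at both times, and the call was lost without culture 2 of 15 min or culture 1 of 30 min. JUN stood at 184 and 212 CPM at 15 min and 485 and 348 CPM at 30 min and JUND at 11 and 11.6 CPM at 15 min and 48.6 and 33.2 CPM at 30 min, with log2 fold changes of 1.07 and 1.85. Both rose, JUND at an adjusted p of 0.0407, close to the threshold. JUNB at 6.46 and 6.84 CPM at 15 min and 30.6 and 13.5 CPM at 30 min did not pass (adjusted p = 0.139), and neither did FOSL2 at 5.82 and 9.57 CPM at 15 min and 25.8 and 9.22 CPM at 30 min. ATF3, an AP-1 partner that is also a target of ATF4, rose from 79.5 and 71.1 to 277 and 196 CPM (log2 1.65, adjusted p = 3.37e-05).

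The NR4A genes, orphan nuclear receptors that act without a known natural ligand, had among the largest fold changes of the comparison. NR4A3 was almost uncounted at 15 min, with 6 and 1 counts, and reached 105 and 88 counts at 30 min, or 63.1 and 54.1 CPM (log2 4.60, adjusted p = 8.27e-06). NR4A1 went from 3.23 and 6.84 to 76.3 and 43 CPM (log2 3.55, adjusted p = 0.000125). NR4A2 went from 15.5 and 25.3 to 115 and 93.4 CPM (log2 2.35, adjusted p = 3.41e-05). All 3 members rose, and all 3 kept their call with any culture left out.

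The zinc finger factor EGR1 stood at 103 and 89.6 CPM at 15 min and 359.7 and 231 CPM at 30 min and rose by a log2 fold change of 1.62 ± 0.23 (SE, adjusted p = 3.41e-05). Its relatives EGR2 and EGR3 had few counts, at 1.94 and 2.74 CPM at 15 min and 13.8 and 7.38 CPM at 30 min for EGR2 and 5.82 and 1.37 CPM at 15 min and 17.4 and 9.84 CPM at 30 min for EGR3, and did not pass (adjusted p = 0.23 and 0.241). Each gene's 30 min values were nevertheless above its 15 min values. MYC, a growth regulator that dimerises with MAX, rose from 194 and 146 to 478 and 392 CPM (log2 1.35, adjusted p = 2.52e-05), while MAX was at 86.6 and 69.8 CPM at 15 min and 80.5 and 67.6 CPM at 30 min and was not called. SRF, the serum response factor itself, rose from 10.3 and 17.8 to 52.2 and 47.3 CPM (log2 1.82, adjusted p = 0.00745). IER2 and IER5, small nuclear proteins of the immediate-early response, rose by log2 values of 1.38 and 1.61. KLF6 rose by 0.64, the smallest value of the called members, and DESeq2 did not call it. CCNL1, an L-type cyclin linked to splicing, rose by 0.89. The members KLF4, KLF10, MAFG and MAFK had log2 fold changes of 0.87, 0.96, 0.70 and 2.86 and were not called.

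**Figure D2:**
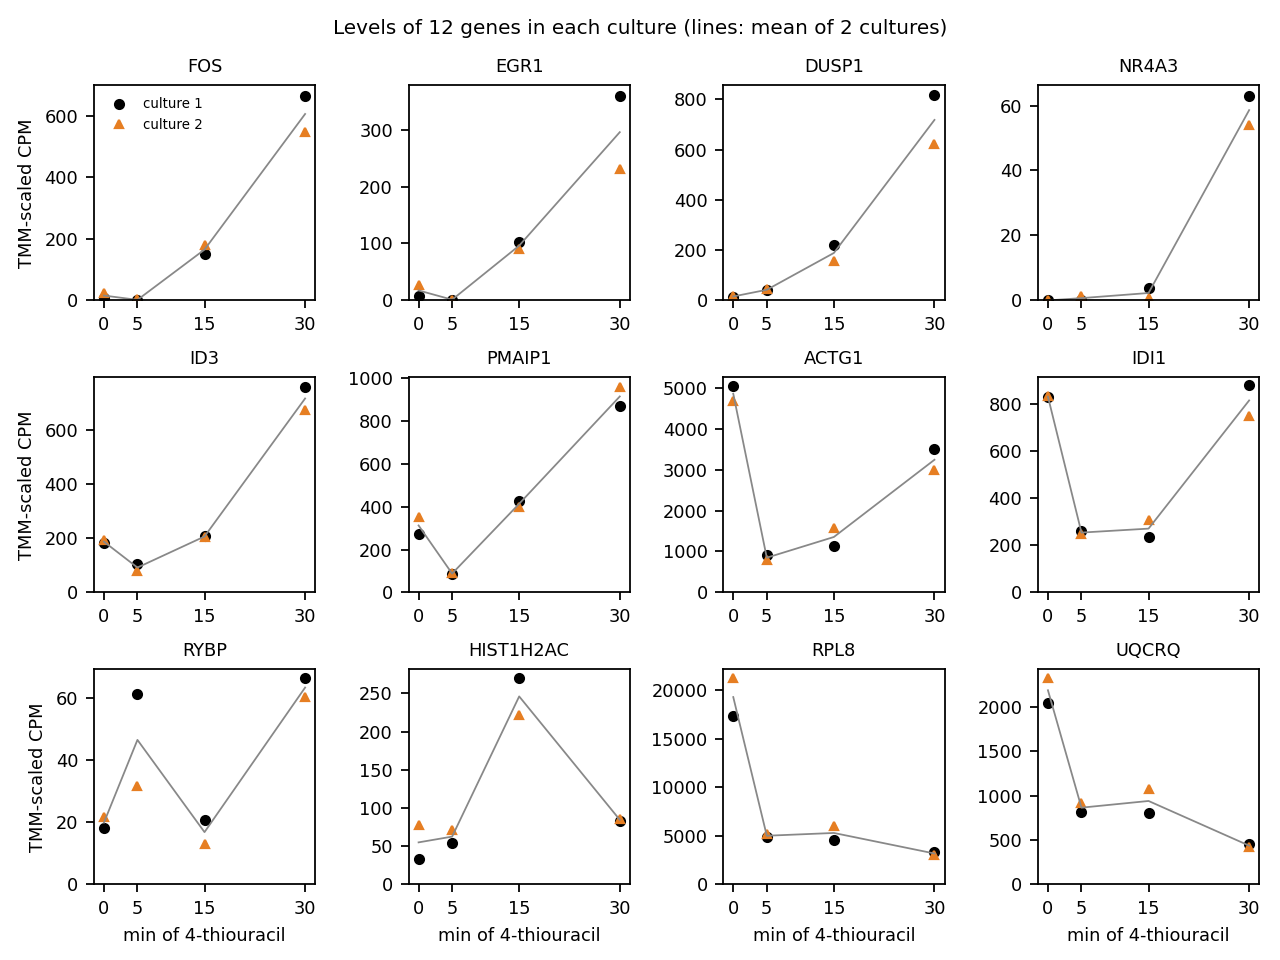
TMM-scaled CPM of 12 genes at 0, 5, 15 and 30 min of 4-thiouracil, with a point per culture and a line through the means. FOS, EGR1 and NR4A3 are near 0 at 5 min, these and DUSP1 are highest at 30 min, RPL8 and UQCRQ are lowest at 30 min, and HIST1H2AC peaks at 15 min.

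The largest single fold change among genes of at least 10 CPM was that of SIK1, a salt-inducible kinase that restrains CREB coactivators. SIK1 had 1 count in each 15 min culture and 54 and 33 at 30 min, a ratio of 39.8 with a 95% counting interval of 10.7 to 334. CSRNP1, a nuclear protein induced by AXIN, rose from 3.88 and 4.79 to 27.6 and 14.1 CPM (log2 2.25, adjusted p = 0.0485). The CSRNP1 call was lost in 7 of 16 other fits with an adjusted p-value, among them RLE scaling, upper-quartile scaling and the replicate block. SOCS5, of the suppressors of cytokine signalling, rose by a log2 value of 2.64, INTS5, an Integrator subunit, by 2.42, and POMGNT2, a glycosyltransferase of dystroglycan, by 2.36. TMEM74, ZNF57 and CCDC115 rose by 2.28, 2.26 and 2.25. SOCS5, INTS5, TMEM74, CCDC115 and POMGNT2 had 14 counts or fewer over both 15 min cultures, so their fold changes have standard errors of 0.65 to 0.72.

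Genes that limit MAP kinase signalling changed in both directions. Among 12 tested dual-specificity phosphatases and Sprouty proteins, 2 rose and 1 fell, with a median log2 fold change of 0.57. DUSP1, a phosphatase that inactivates MAP kinases in the nucleus, stood at 219.8 and 158 CPM at 15 min and 816 and 621 CPM at 30 min and rose by a log2 fold change of 1.93 ± 0.19 (SE, adjusted p = 3.42e-08). SPRY2, which restrains receptor tyrosine kinase signalling, rose from 54.9 and 51.3 to 117 and 92.8 CPM (log2 0.98), a call that DESeq2 did not make. DUSP16, a phosphatase for JNK and p38, fell from 169 and 137 to 95.5 and 66.4 CPM (log2 -0.92, adjusted p = 0.0076).

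Target genes of BMP, TGF-beta and Notch signalling rose in 5 of 14 cases and fell in none, with a median of 0.60. Without either culture of 15 min or culture 1 of 30 min 2 were called, and without culture 2 of 30 min and with DESeq2 3. The ID proteins bind basic helix-loop-helix factors and keep them off DNA. ID3 stood at 209 and 205 CPM at 15 min and 762 and 674 CPM at 30 min and rose by a log2 fold change of 1.79 ± 0.18 (SE, adjusted p = 3.42e-08), with both 30 min cultures well above both of 15 min. ID1 rose from 11.6 and 15 to 64.9 and 31.4 CPM (log2 1.85), and ID2 at 1392 and 1252 CPM at 15 min and 1515 and 1882 CPM at 30 min did not pass (adjusted p = 0.309). The Notch targets HEY1, a transcriptional repressor, and NRARP, a regulator of Notch signalling, rose by 1.13 and 1.40. HES1, another Notch target, was at 733 and 736 CPM at 15 min and 1132 and 834 CPM at 30 min and did not pass (adjusted p = 0.234). All 14 members had a log2 fold change above 0.

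The YAP targets CTGF (now named CCN2) and CYR61 (CCN1), secreted matrix proteins, were the 2 that rose of 9 tested. CYR61 stood at 70.5 and 72.5 CPM at 15 min and 228 and 187 CPM at 30 min (log2 1.54, adjusted p = 3.41e-05) and CTGF at 22 and 31.5 CPM at 15 min and 129 and 84.8 CPM at 30 min (log2 2.00, adjusted p = 0.00049), and DESeq2 did not call CTGF. ANKRD1, another such target, was at 105 and 95.7 CPM at 15 min and 124 and 129.7 CPM at 30 min and did not pass. Of 21 actin and SRF target genes, 2 rose, and these were the cytoplasmic actins. ACTB stood at 502 and 669 CPM at 15 min and 1691 and 1405 CPM at 30 min and ACTG1 at 1143 and 1563 CPM at 15 min and 3493 and 2986 CPM at 30 min, and they rose by 1.40 and 1.26 (adjusted p = 2.37e-05 and 0.000115). The median of the actin list was 0.09, and its other members were not called. Processed pseudogenes of both actins exist, and the sources used here do not say how shared reads were assigned.

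Stress-response genes rose in part. Of 34 genes of the integrated stress and unfolded protein responses, 5 rose and none fell, with a median of 0.18. ATF4, the transcription factor of the integrated stress response, went from 215 and 257 to 545 and 511 CPM (log2 1.16, adjusted p = 4.26e-05), and its target DDIT3, which encodes CHOP, from 70.5 and 73.2 to 139 and 125 CPM (log2 0.88). The endoplasmic reticulum chaperone HSPA5 rose by 0.74 and its cochaperone DNAJB9 by 2.41. The ATF4 targets ASNS, PSAT1 and TRIB3, named after their values were seen, had log2 fold changes of -0.21, -0.35 and 0.90 and were not called. Between 2 and 9 members were called over the other settings, the lowest without either culture of 30 min.

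Of 25 tested heat shock genes, 6 rose and 2 fell, with a median of 0.10. The cytosolic chaperone HSPA8 rose from 575 and 823 to 1310.4 and 1354 CPM (log2 0.93), and the inducible HSPA1B from 38.1 and 61.5 to 124 and 91 CPM (log2 1.11). The HSP40 partners DNAJB1 and DNAJA2 rose by 1.27 and 0.92, and DESeq2 called neither of them nor HSPA1B. The mitochondrial co-chaperonin HSPE1 fell from 493 and 793 to 342 and 256 CPM (log2 -1.10), and the small heat shock protein HSPB1 fell, with a log2 fold change of -0.72. HSP90AA1 at 1336 and 1535 CPM at 15 min and 1292 and 1396 CPM at 30 min overlapped between the times. The number that rose dropped to 1 without culture 1 of either time.

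Among 24 tested p53 targets 2 rose, PMAIP1 and BTG2, and the list's median was 0.46. PMAIP1, which encodes the BH3-only protein NOXA, stood at 429 and 399 CPM at 15 min and 869.6 and 961 CPM at 30 min and rose by a log2 fold change of 1.14 ± 0.17 (SE, adjusted p = 5.75e-05). MCL1, the antiapoptotic BCL2 relative that NOXA binds, rose from 67.9 and 60.9 to 179.6 and 138 CPM (log2 1.30, adjusted p = 0.000683). These were the 2 of 14 tested BCL2 family genes that rose, and none fell. Of 18 genes of mRNA decay, 5 rose, and 4 of the 5 were members of the BTG and TOB family, which recruits the CCR4-NOT deadenylase. The other was ZFP36L1, which binds AU-rich elements. BTG2 stood at 38.1 and 48.6 CPM at 15 min and 156 and 119 CPM at 30 min (log2 1.66), and BTG1, TOB1 and TOB2 rose by 1.07, 1.72 and 1.35. The CCR4-NOT subunits CNOT2 and CNOT4 were not called. Only 1 of the 18 was called without culture 2 of 15 min and without culture 1 of 30 min.

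Some genes of RNA processing rose. Of 12 SR splicing factors, 3 rose and none fell, with a median of 0.40. SRSF7 stood at 721 and 873 CPM at 15 min and 1298 and 1424 CPM at 30 min and rose by a log2 fold change of 0.77 ± 0.19 (SE, adjusted p = 0.0104). SRSF2 rose by 1.11 and SRSF6 by 1.35, and SRSF3 at 354 and 473 CPM at 15 min and 582 and 544 CPM at 30 min did not pass (adjusted p = 0.185). Of 9 host genes of small nucleolar RNAs, whose introns hold the guide RNAs for rRNA modification, 6 rose, with a median of 1.16. SNHG15 stood at 378 and 451 CPM at 15 min and 1007 and 955 CPM at 30 min and rose by a log2 fold change of 1.24 ± 0.18 (SE, adjusted p = 3.41e-05). SNHG10, SNHG12 and SNHG7 rose by 1.75, 1.44 and 1.24, and TAF1D, a subunit of the RNA polymerase I factor SL1, by 0.63. Without culture 1 of 15 min or culture 1 of 30 min 2 of the 9 were called. Of 25 hnRNP genes 2 rose, HNRNPL by 0.68 and PCBP1 by 1.02, and of 46 DEAD and DEAH box helicases DDX3X rose by 0.85, the mitochondrial helicase DDX28 by 1.72, and DDX39A fell, with a log2 fold change of -0.71. Beside 2.26% higher and 2.78% lower of all genes tested, these few calls do not set either list apart.

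Polycomb repressive complex 1, which marks and compacts silent chromatin, had 4 rises and no fall among 21 tested genes, with a median of 0.64. RYBP, which bridges the catalytic subunits of the noncanonical complex, stood at 20.7 and 13 CPM at 15 min and 66.7 and 60.2 CPM at 30 min and rose by a log2 fold change of 1.90 ± 0.34 (SE, adjusted p = 0.000582). CBX6 rose by 1.03 and BCOR by 0.64, calls that DESeq2 did not make. Only 1 of the 21 was called without culture 2 of 15 min or culture 1 of 30 min. BRD2, a bromodomain reader of acetylated histones, was the 1 of 70 chromatin genes that rose, from 195 and 233 to 579.5 and 439.6 CPM (log2 1.25, adjusted p = 3.64e-05). Among all genes tested 2.26% rose, so 1 of 70 does not set the chromatin list apart.

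Genes of cholesterol synthesis and of polyamine metabolism changed in both directions. IDI1, which isomerises isopentenyl diphosphate, stood at 236 and 307 CPM at 15 min and 883 and 751 CPM at 30 min and rose by a log2 fold change of 1.59 ± 0.18 (SE, adjusted p = 7.35e-07). MSMO1, a sterol methyl oxidase, rose by 0.83 and INSIG1, which keeps the SREBP escort SCAP in the endoplasmic reticulum, by 1.33. PMVK and FDPS, enzymes before and after IDI1 in the mevalonate route, fell, with log2 fold changes of -0.77 and -0.69, and neither fall was called with total counts. Of 24 tested genes these 3 rose and 2 fell, with a median of 0.33. Among 8 polyamine genes SAT1, which acetylates spermidine and spermine, rose from 269 and 249.6 to 622 and 562 CPM (log2 1.19, adjusted p = 3.41e-05), and OAZ1, the antizyme that inhibits ornithine decarboxylase, fell, with a log2 fold change of -0.69.

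Many nuclear genes of the respiratory chain and some genes of the cytosolic ribosome fell, and none of either rose. Of 36 nuclear genes of complexes III and IV, cytochrome c and ATP synthase, 21 fell and none rose, with a median of -0.76. UQCRQ, a small subunit of complex III, stood at 805 and 1078 CPM at 15 min and 453 and 421 CPM at 30 min and fell by 1.11 ± 0.19 on the log2 scale (SE, adjusted p = 0.000329). The ATP synthase subunits ATP5I and ATP5O both fell, ATP5I with a log2 fold change of -1.06, as did COX7B and COX7A2 of complex IV, with -1.01 and -0.90. Of 41 complex I genes, 18 fell and none rose, with a median of -0.65. NDUFB9 stood at 529 and 600.4 CPM at 15 min and 278 and 253 CPM at 30 min and fell by 1.09 ± 0.18 on the log2 scale (SE, adjusted p = 0.000316). NDUFS8, a subunit that carries iron-sulphur clusters, NDUFA3 and NDUFS5 fell, with log2 fold changes of -1.05, -1.04 and -1.04.

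The mRNAs that mitochondria transcribe themselves did not share this direction. Of 11 tested, 5 rose and none fell, with a median of 0.50. MT-CO1 stood at 849 and 695 CPM at 15 min and 1550.0 and 1357 CPM at 30 min and rose by a log2 fold change of 0.91 ± 0.18 (SE, adjusted p = 0.00187). MT-CO3, MT-CO2 and MT-ND2 rose by 0.98, 0.78 and 0.91, and their 30 min values were lower in culture 2 than in culture 1. MT-ND1 at 2779.8 and 3449 CPM at 15 min and 4895 and 4810.5 CPM at 30 min passed narrowly (adjusted p = 0.0464). It was not called in 13 of 18 other fits, among them RLE and upper-quartile scaling. MT-ND3 at 2641 and 3496 CPM at 15 min and 3336 and 3066 CPM at 30 min did not pass. Without culture 1 of 30 min none of the 11 was called.

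Of 84 cytosolic ribosomal protein genes, 20 fell and none rose, with a median of -0.46. RPL36 stood at 3276 and 3792 CPM at 15 min and 1964 and 1816 CPM at 30 min and fell by 0.90 ± 0.20 on the log2 scale (SE, adjusted p = 0.0037). RPL8, RPL35, RPL30, RPLP0 and RPL22 fell, with log2 fold changes of -0.74, -0.82, -0.88, -0.76 and -0.90, while RPL3, RPL4 and RPL13A, named after their values were seen, were at 0.20, 0.14 and 0.05 and were not called. RPS27L, a p53-induced relative of RPS27, was the member that fell most, by a log2 value of -1.09. Many members have processed pseudogenes, so shared reads are a limit for them as for the actins. The list's summed share of counts was 9.81% and 11.7% in the 15 min cultures and 8.07% and 7.5% in the 30 min cultures.

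Culture 2 of 15 min stood above culture 1 on each of these lists. The share of the complex III, IV and ATP synthase genes was 2.00% and 2.55% at 15 min and 1.5% and 1.4% at 30 min, that of complex I 1.14% and 1.36% at 15 min and 0.822% and 0.764% at 30 min. Both 15 min cultures were above both of 30 min for all 3 lists. Without culture 2 of 15 min, 6 ribosomal, 8 complex I and 9 complex III, IV and ATP synthase genes were called lower. Without culture 1 of 15 min these numbers were 41, 22 and 24. Without culture 1 of 30 min they were 2, 9 and 10, and without culture 2 of 30 min 1, 5 and 5. The part that culture 2 of 15 min has in these falls beyond these counts was not tested. The median of each list was below 0 in all these fits, from -0.30 to -0.64 for the ribosomal genes.

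**Figure D3:**
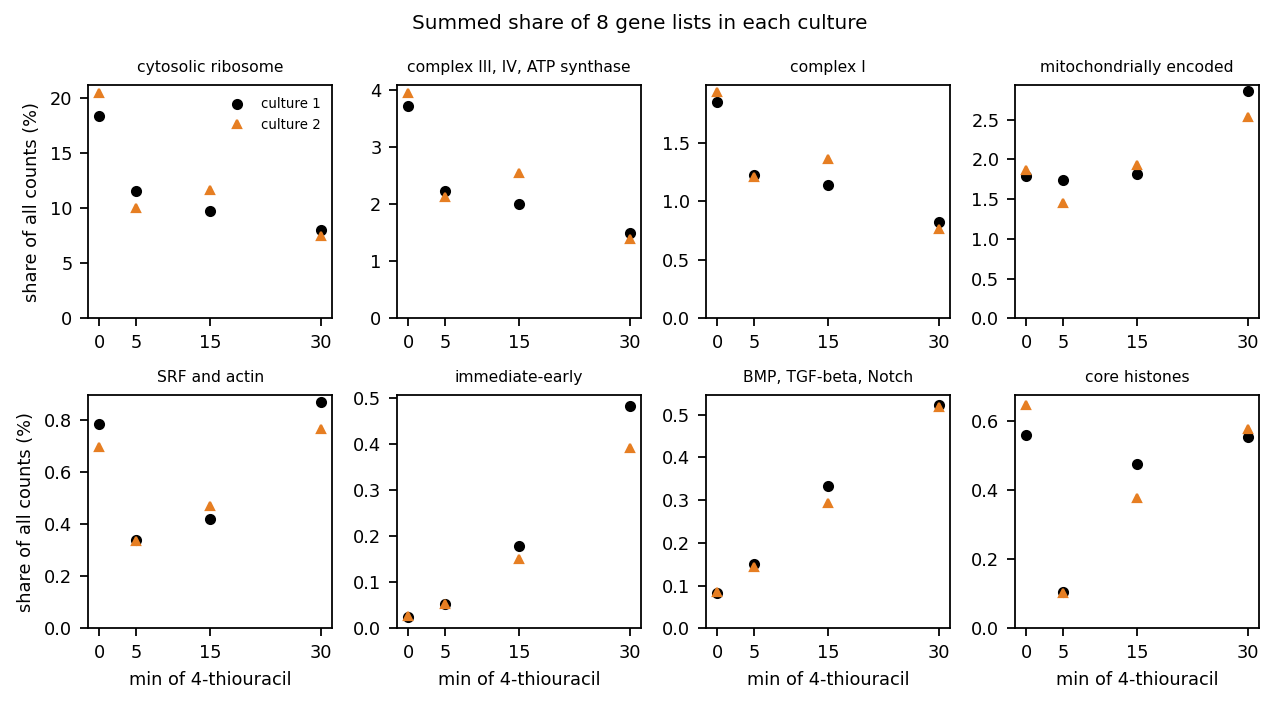
Summed share of all counts (%) of 8 gene lists in each culture at 0, 5, 15 and 30 min, with a point per culture. The ribosomal, complex I and complex III, IV and ATP synthase genes are lowest in the 30 min cultures, while the immediate-early, mitochondrially encoded and BMP, TGF-beta and Notch genes are highest there.

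Other protein complexes had fewer calls. Of 31 proteasome genes 7 fell and none rose (median -0.28), among them PSMA4 and PSMB3 of the core particle with log2 fold changes of -0.94 and -0.93 and the ubiquitin receptor PSMD4 of -0.77. Of 42 RNA polymerase II and Mediator genes 5 fell, namely POLR2F, POLR2G, POLR2I, POLR2J and POLR2L, all small polymerase subunits. POLR2L stood at 783 and 1113 CPM at 15 min and 536 and 428 CPM at 30 min and fell by 0.98 ± 0.20 on the log2 scale (SE, adjusted p = 0.00213). POLR2F, POLR2G and POLR2J fell, with log2 fold changes of -0.90, -0.91 and -0.88. Under each scaling 5 of the 42 were called lower, but 2 were called without culture 2 of 15 min or culture 1 of 30 min and none without culture 2 of 30 min. Mitochondrial ribosomal protein genes went both ways, with 9 lower and 4 higher of 71. MRPL52, MRPS18C, MRPL40 and MRPS36 fell, with log2 fold changes of -1.08, -0.93, -0.88 and -0.85, and MRPS2, MRPL17, MRPL44 and MRPL49 rose by 1.51, 1.03, 0.84 and 0.80. Of 12 subunits of the initiation factor eIF3, EIF3D, EIF3I and EIF3K fell, with log2 fold changes of -0.62, -0.81 and -0.98, and none of them was called without culture 1 of 30 min. No proteasome gene was called without culture 2 of 15 min.

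Replication-dependent histone genes, whose mRNAs end in a stem-loop rather than a poly(A) tail when processed in S phase, were mostly below 0 with few calls. Of 21 core histone genes 3 fell and none rose, with a median of -0.56. In this list 15 genes had a log2 fold change below 0 and 6 above. HIST1H2AC stood at 269.6 and 222 CPM at 15 min and 83.5 and 85.5 CPM at 30 min and fell by 1.54 ± 0.22 on the log2 scale (SE, adjusted p = 3.62e-05). HIST1H3D and HIST1H2BN fell, with log2 fold changes of -0.89 and -1.03. The HIST1H3D call was lost in 4 and the HIST1H2BN call in 6 of 18 other fits, with total counts among them for both. HIST1H4C was at 2727 and 2279.9 CPM at 15 min and 3741 and 3912 CPM at 30 min, above 0 and not called (adjusted p = 0.0627). It held most of the list's counts, and the list's share of all counts was 0.473% and 0.377% at 15 min and 0.552% and 0.576% at 30 min, opposite in sign to the median gene. The linker histone gene HIST1H1C fell, with a log2 fold change of -0.73. Replacement variants, which are made with introns or poly(A) tails outside S phase, rose in 2 of 10 cases. H3F3B, which encodes H3.3, stood at 1029 and 1339.6 CPM at 15 min and 2169 and 2361 CPM at 30 min and rose by a log2 fold change of 0.94 ± 0.19 (SE, adjusted p = 0.00169). H2AFX rose by 1.43, and H2AFZ at 954 and 1305 CPM at 15 min and 901 and 802 CPM at 30 min was not called. Histone genes within a cluster are nearly identical copies, so reads may be split among them.

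**Figure D4:**
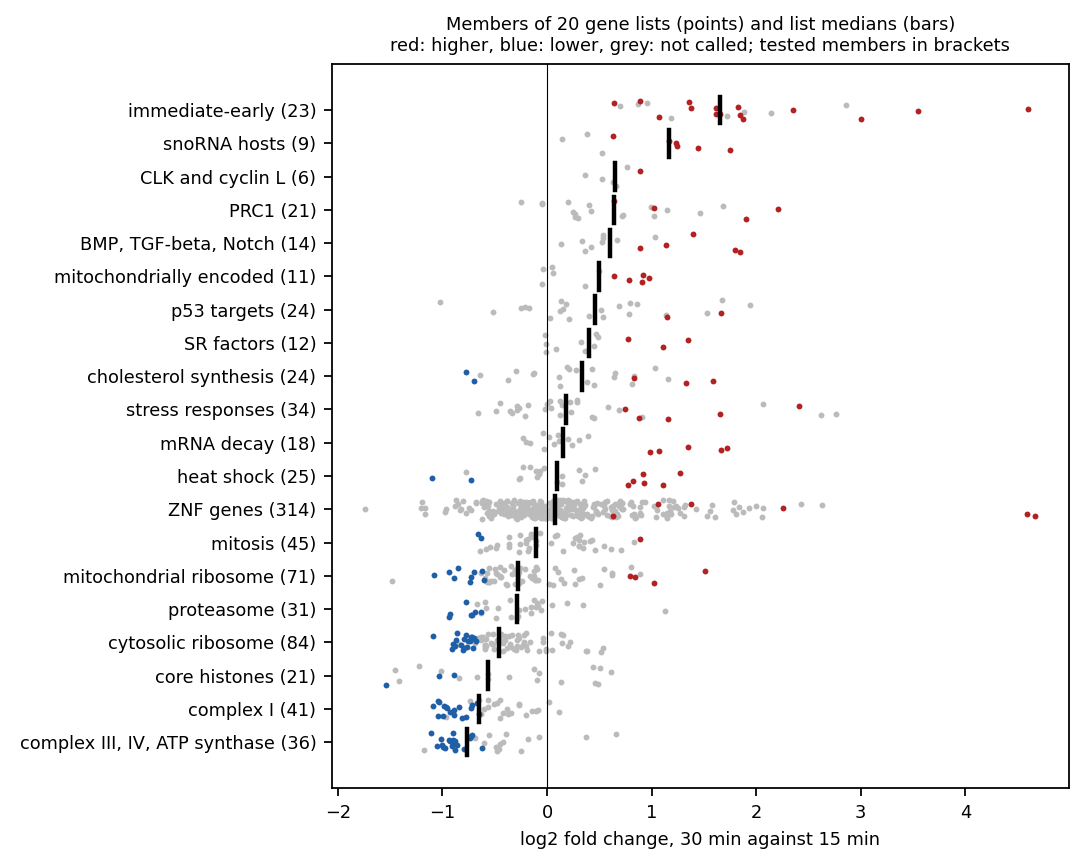
Log2 fold change from 15 to 30 min of each tested member of 20 gene lists (points; red higher, blue lower, grey not called), with a bar at the list's median and the number of tested members in brackets. The immediate-early and snoRNA host lists have the highest medians, 1.65 and 1.16, and the complex I list and that of complexes III and IV and ATP synthase the lowest, -0.65 and -0.76.

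The largest decreases by fold included HIST1H2AC, described above, the clone-named gene RP11-295G20.2 and the genes that follow here. NDST4, a heparan sulphate sulphotransferase, stood at 36.8 and 21.9 CPM at 15 min and 8.41 and 8.61 CPM at 30 min and fell by 1.78 ± 0.54 on the log2 scale (SE, adjusted p = 0.0473). The NDST4 call was lost in 7 of 17 other fits with an adjusted p-value, among them total counts, upper-quartile scaling and the replicate block. GCA, the calcium-binding protein grancalcin, fell from 29.7 and 34.9 to 10.8 and 9.22 CPM (log2 -1.68). RNASEH2A, the catalytic subunit of RNase H2, stood at 107 and 143 CPM at 15 min and 42 and 59 CPM at 30 min and fell by 1.31 ± 0.21 on the log2 scale (SE, adjusted p = 0.000194). PHPT1, a phosphohistidine phosphatase, stood at 184 and 227 CPM at 15 min and 88.3 and 71.3 CPM at 30 min and fell by 1.36 ± 0.20 on the log2 scale (SE, adjusted p = 3.41e-05). BLVRB, a biliverdin reductase, and KRTCAP2, a subunit of the oligosaccharyltransferase, fell, with log2 fold changes of -1.43 and -1.42. SELENBP1, GSTZ1 and STRA13, a centromere protein also named CENPX, had log2 fold changes of -1.39, -1.22 and -1.22. C20orf96, TMEM141 and TMEM179B fell, with log2 fold changes of -1.46, -1.19 and -1.19.

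Few noncoding genes were called, beside 2.26% higher and 2.78% lower of all genes tested. Of 11946 entries with LINC or clone names, 8696 had no count at 15 and 30 min. All these entries together held 1.6% to 1.9% of counts in the cultures of these times. Of 502 genes with LINC or clone names 7 rose and 2 fell, with a median of -0.13. RP11-486G15.2 rose by 1.60, RP1-39G22.7 by 1.57, RP6-99M1.2 by 0.76, and RP11-295G20.2 fell, with a log2 fold change of -1.24. None of 126 named antisense genes and none of 7 nuclear long noncoding RNAs was called. MALAT1 stood at 2305 and 2486 CPM at 15 min and 1790.3 and 2024 CPM at 30 min and NEAT1 at 275 and 289 CPM at 15 min and 337 and 345 CPM at 30 min. Counts of antisense and overlapping genes are uncertain, since no label or header says that strand was used. Among 314 ZNF genes 6 rose and none fell, close to the 2.26% of all genes tested. ZNF703 rose from 25.9 and 29.4 to 76.3 and 67 CPM (log2 1.37) and ZNF24 by 0.63. ZNF256 and ZNF296 had 1 count each over both 15 min cultures and 36 and 34 at 30 min, ratios of 32.9 (95% counting interval 5.54 to 1340) and 31.1 (5.21 to 1260).

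Several groups had few or no calls, beside 5.04% of all genes tested called in either direction. In small lists that share leaves few calls, so an absence of calls does not set a group apart. None of 20 aminoacyl-tRNA synthetase genes, 16 pyrimidine metabolism genes, 12 tubulin genes, 12 circadian genes, 8 TRiC chaperonin genes, 8 NF-kappaB target genes or 6 SOX genes passed in either direction. IARS was at 784 and 727 CPM at 15 min and 513 and 553 CPM at 30 min, TUBA1B at 1389 and 1659 CPM at 15 min and 1728 and 1948 CPM at 30 min and SOX4 at 2364 and 2363 CPM at 15 min and 2282 and 2348 CPM at 30 min, with log2 values of -0.50, 0.27 and -0.03. Of 19 glycolysis genes PGK1 fell, with a log2 fold change of -0.66, and GAPDH at 1634 and 2151 CPM at 15 min and 1547 and 1451 CPM at 30 min did not pass. Of 51 DNA replication genes POLE3 rose by 0.73 and CDC45 fell, with a log2 fold change of -0.76. Of 45 mitosis genes CKS2 rose by 0.89 and PTTG1 and SPC25 fell, with log2 fold changes of -0.63 and -0.66. Of 50 nuclear pore and transport genes KPNA2, an importin alpha, and NXT1, an mRNA export cofactor, rose by 0.78 and 1.56. Of 141 solute carriers SLC20A1, SLC25A3 and the glucose transporter SLC2A1 rose by 0.77, 0.70 and 1.88. Of 44 USP genes USP36 rose by 0.84, and of 23 P-TEFb and elongation genes MEPCE, the 7SK capping enzyme, by 1.24. Among further lists, EIF4A2 rose and EEF1D and GNB2L1 fell of 20 translation genes, NIP7 and TAF1D rose and NHP2 fell of 51 ribosome biogenesis genes, MYC and the kinase gene PIM3 rose of 12 in the MYC and PIM list, KLF6 rose of 10 KLF genes, CCNL1 rose of 6 CLK and cyclin L genes, IFITM2 fell of 11 interferon genes, and SLC2A1 rose of 17 hypoxia genes. In simulated counts with these depths and spreads, 82.5% of 63 genes with a 4-fold change, 29.8% of 57 with a 2-fold change and 16.2% of 80 with a 1.5-fold change were recovered, so a change of 2-fold could go uncalled.

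Genes of 1 to 3 exons differed in their change from 15 to 30 min from genes with more exons. Of the tested genes, 9697 matched nuclear protein-coding genes of GENCODE 29 by symbol or RefSeq synonym. Genes whose transcript has a single exon had a median log2 fold change of 0.68 (168 genes), those with 2 to 3 exons 0.33 (860), those with 4 to 6 exons -0.01 (2042) and those with more than 20 exons -0.07 (1450). The share that rose decreased along the same order, from 17.9% to 8.95%, 3.33% and 0.069%, beside 2.24% of all 9697. The share that fell was 1.19%, 5.81%, 7.1% and 0.138% in these groups, beside 2.95% of all. Genes of more than 20 exons were thus seldom called in either direction. Without histone genes the single-exon median was 0.83 over 148 genes. In the 4 pairings of a 30 min with a 15 min culture the single-exon median was between 0.61 and 0.79 (log2 of CPM plus 1), whereas culture 2 differed from culture 1 by a median of -0.0023 at 15 min and -0.10 at 30 min. For genes of more than 20 exons the 15 min cultures differed by -0.09, more than the change itself. Spearman's rho with exon number across genes was -0.12 for the change, -0.12 for the difference between the 15 min cultures and 0.07 for that between the 30 min cultures. Single-exon genes that rose include JUN, JUND, IER2, IER5, RHOB, CXCR4, HSPA1A and HSPA1B, so this group overlaps the lists above.

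Genes with short transcripts were called lower more often than other genes. The shortest 20% of transcripts (336 to 1823 bases) had a median of -0.19, with 222 of 1941 genes (11.4%) lower and 45 higher, against 2.95% lower among all. Within this set, genes of 4 or more exons had a median of -0.22 and those of 1 to 3 exons of 0.0034, and among longer transcripts genes of 1 to 3 exons had a median of 0.54. Culture 2 of 15 min was above culture 1 for this set by a median of 0.19, as large as the change itself, and the 4 pairings gave medians from -0.29 to -0.08. Genes that fell had a median transcript of 1049 bases and a median 3′ UTR of 273 bases, and genes that rose 2568 and 1154 bases, against 3273 and 1120 for all. The AU-rich nonamer TTATTTATT, written in DNA letters, which decay factors such as ZFP36 bind in RNA, was found in the 3′ UTR of 12.9% of genes that rose, 4.26% of those that fell and 8.63% of all. FOS, DUSP1, IER5, SRF, RYBP and CSRNP1 are among the 28 that rose and hold it. The shares with the nonamer are not adjusted for 3′ UTR length, and genes that fell had shorter 3′ UTRs. Across genes, Spearman's rho of the log2 fold change was -0.13 with gene span and 0.16 with 3′ UTR length (9697 and 9581 genes), while the difference between the 15 min cultures gave -0.17 and -0.14 and that between the 30 min cultures 0.15 and 0.06. The relation with span was smaller in size than both values between replicates, and that with 3′ UTR length was larger than both.

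**Figure D5:**
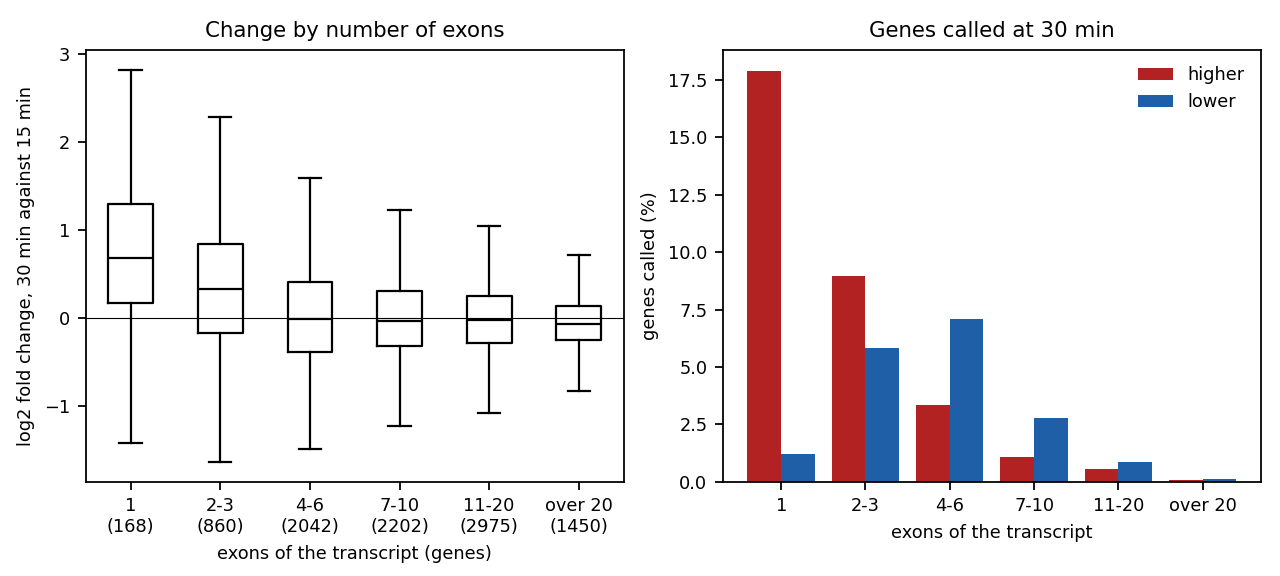
Left, log2 fold change from 15 to 30 min by the number of exons of the transcript (boxes show quartiles and median, whiskers reach 1.5 interquartile ranges, genes in brackets). Right, percentage of genes called higher and lower. Single-exon genes have a median of 0.68, with 17.9% called higher and 1.19% lower. Genes of more than 20 exons have a median of -0.07, with 0.069% higher and 0.138% lower.

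The step from 15 to 30 min differed from the step from 5 to 15 min in 22 genes, 0.211% of those tested, by a test of the difference of both log2 changes. The 2 steps last 10 and 15 min and share the 15 min cultures, which the test takes into account, and the changes are not divided by time. In 19 genes the later step was lower and in 3 higher. Of the 19, 9 are histone genes. From 5 to 15 min, when 1.55% of all genes were called in either direction, the 9 were all called higher, and from 15 to 30 min 4 of the 9 were called lower and none higher. These calls describe genes chosen for the difference between the same steps and are no test of it. HIST1H2AC stood at 54.3 and 70.7 CPM at 5 min, and its log2 changes were 1.95 and then -1.54. FOS and EGR1 rose in both steps with the larger log2 change in the first, from 0 and 5 counts of FOS and 1 and 2 of EGR1 at 5 min. For EGR1 the first step was a ratio of 72.7 with a 95% counting interval of 24.6 to 355. CYR61 followed the same course, with log2 changes of 3.86 and 1.54. SOX4, a factor of progenitor cells, had log2 changes of 1.55 and then -0.03. TXNIP, which binds thioredoxin and was named after its values were seen, had 2.19 and then 0.48. PHPT1 and TMEM179B, among the largest decreases, had first steps of 0.06 and 0.56.

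The 3 genes with a higher later step were RYBP, MSMO1 and IDI1. RYBP stood at 61.4 and 31.8 CPM at 5 min, 20.7 and 13 at 15 min and 66.7 and 60.2 at 30 min, low at 15 min between higher values on both sides. MSMO1 stood at 176 and 158, 83.4 and 79.3 and 150.1 and 139 CPM. IDI1 was level from 5 to 15 min, at 262 and 247 and then 236 and 307 CPM, and rose after 15 min. Among the immediate-early genes the first step gave a median log2 change of 1.54 and the later step 1.65. The complex I list had medians of -0.02 and -0.65, the list of complexes III and IV and ATP synthase 0.01 and -0.76, and the ribosomal list -0.03 and -0.46. Both steps share the 15 min cultures, so these medians are only set side by side.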

How the data were processed

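The authors deposited raw read or molecule counts per gene for 32 libraries of polyA RNA, and no label says whether these are reads or unique molecules. STAR and the hg19 build are named in the submitters' processing notes, without versions. The 4 libraries of each biological replicate were summed (8 cultures; 776871 to 1396056 counts). Genes were filtered with filterByExpr (10439 of 32738 entries kept; 18789 had a count) and tested in R 4.3.3 with edgeR 4.0.16 (TMM scaling, quasi-likelihood F test, two-sided, Benjamini-Hochberg threshold 0.05) on all 4 times, with 4 residual degrees of freedom and a biological coefficient of variation of 15.3%. An exact permutation test of 2 against 2 cultures cannot go below p = 0.333 and was not used. DESeq2 1.42.0 was an alternative. The script was tested on simulated data. Counting intervals are exact, at 95%, and cover counting error only. Gene structure came from GENCODE 29 (GRCh38), with no coordinates carried over from hg19, and promoters from RefSeq.

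Named genes were the 14 largest increases and decreases by log2 fold change and the 8 largest by CPM (called, mean of at least 10 CPM, no overlap), the 2 most abundant members and up to 4 called members per direction of each of 60 gene lists, every immediate-early gene, and up to 6 step differences each way. A gene outside this rule was chosen after its values were seen, as was the motif TGACG. Members and lists were chosen with earlier results of these data known.

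The replicate numbers did not pair the samples. Same-numbered cultures of 15 and 30 min deviated together with r = -0.043 across genes, and the 6 pairs of times gave -0.043 to 0.0778.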

Additional observations from a re-analysis of the deposited data

Results flagged for a closer look

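The step from 15 to 30 min differed from the step from 5 to 15 min in 22 genes by the test of the difference itself, and the 9 of them that the rule for named step differences selects are given here. The difference was positive (a higher later step) for RYBP at 3.31 on the log2 scale, MSMO1 at 1.86 and IDI1 at 1.5. It was negative for EGR1 at -4.46, HIST1H1D at -4.42, FOS at -4.29, HIST1H4E at -4.09, HIST1H3H at -3.77 and HIST1H2AC at -3.49. EGR1, FOS, HIST1H1D, HIST1H4E and HIST1H3H had 12 counts or fewer over both 5 min cultures, so the size of their difference rests on those counts. The call for RYBP was lost without culture 1 of 5 min (2.81) and without culture 2 of 15 min (2.72), that for MSMO1 without culture 2 of 15 min (1.77) and that for HIST1H4E without culture 1 of 15 min (-3.52). IDI1 lost its call in 5 of 17 other fits and HIST1H3H in 5 of 16. The fitted value of FOS went to -8.80 without culture 2 of 5 min, which leaves 0 counts at that time. Of these 9 genes, only IDI1 and FOS had an adjusted p-value for the difference with DESeq2.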

How the results depend on the processing

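Fitting only the 15 and 30 min cultures gave 513 genes higher and a median log2 fold change of 0.00625 over all genes, and leaving out the 0 min cultures gave a median of 0.00649. The median was -0.0867 with RLE scaling, 0.0875 with total counts, 0.0344 with upper-quartile scaling and -0.0868 with DESeq2, which called 111 genes higher. Leaving out 1 culture gave 65 to 315 genes higher, 52 to 354 lower and medians of -0.0238 to 0.0179; a culture left alone at its time is taken to vary like the others. Genes with a lower later step numbered 35 without the 0 min cultures, 29 with RLE scaling, 57 with no count filter, 92 with DESeq2 and 33 with 1 library per cDNA, and those with a higher later step 5 with no filter, 5 with DESeq2 and 6 with 1 library per cDNA. Without 1 culture they numbered 9 to 113 and 1 to 6. The causes were not tested. With the replicate block 217 genes rose and 273 fell, of which 213 and 272 were among those reported. Of 4416 refits of named genes that gave an adjusted p-value, 443 lost and 32 gained a call, and none reversed a called sign. Refits without one, those of DESeq2 among them, are left out of these numbers rather than counted as not called. The absence of reversals without a culture was nearly fixed beforehand, because the cultures of 15 and 30 min overlapped in no called gene. The rho with gene span was -0.12 over genes of at least 10 CPM. Depth limits calls among genes of few counts, and 4 residual degrees of freedom limit all of them.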
